A study of Rattus norvegicus with 6 samples.

Results

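The TGF-beta and BMP4 genes were followed through rat ovaries around the assembly of primordial follicles: the ligands Tgfb1, Tgfb2, Tgfb3 and Bmp4 and the receptors Tgfbr1, Tgfbr2 and Tgfbr3. Every probe set whose platform annotation gave exactly 1 symbol equal to one of these 7 was taken, which gave 9 of the 8799 probe sets, for 6 genes. Tgfbr2 had no such probe set and was not analysed here. Although the set spans TGF-beta and BMP signalling, Bmp4 was its only BMP gene, and it held no BMP receptor.

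Total RNA of whole rat ovaries had been hybridized to 6 Affymetrix Rat Genome U34 arrays (Set A), 2 for each of 3 groups. Cultured ovaries were taken on postnatal day 0 and kept for 7 days on floating filters in a medium with bovine serum albumin, Albumax, transferrin, insulin, ascorbic acid, penicillin and streptomycin. P4 ovaries were taken on postnatal day 4 and P0 ovaries on postnatal day 0, both uncultured. No strain, genotype or allele is given for any group, and the RNA of an array came from a pool of about 20 ovaries. The series design text speaks of pooled cultured ovaries treated with progesterone, a treatment that no sample label gives, so whether it reached either cultured array is not settled, and both were taken as labelled. Values are probe set intensities in array units, which the authors had brought to a common level on all 6 arrays, and the number of arrays limits their precision.

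On some control probes, P0 replicate 1 was unlike the other arrays. Its GAPDH 3′ probe set read 1324.2, against 2162.3 to 2775.1 on the other 5, and its BioC 3′ spike read 296.3, against 148.7 to 225.4. Over all probe sets tested, the P0 replicates correlated at 0.962, beside 0.969 for P4 and 0.965 for cultured ovaries, and an effect of the control readings on other values was not tested. On the 23 control probe sets with no spiked transcript the highest reading was 20, which is used below as the level of a dim signal. The tissue label was checked on oocyte markers. The 5 of 8 listed ones on the array exceeded that level on every array and summed to 3137.6 and 3005.7 in cultured ovaries, 3819.5 and 4132.5 at P4, and 1065 and 1197.3 at P0. RNA came from whole ovaries, so fewer cells of a type and less RNA per cell cannot be told apart in any value below.

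TGF-beta ligands are secreted in a latent form and, once released, assemble a type II receptor (TGFBR2) with a type I receptor (TGFBR1), which phosphorylates SMAD2 and SMAD3. Betaglycan, the product of Tgfbr3, is a coreceptor that presents TGF-beta 2 in particular and also helps inhibin to block activin receptors. BMP4 binds BMP receptors that signal through SMAD1, SMAD5 and SMAD9, and in the neonatal rat ovary it is known as a factor that supports primordial follicle development and oocyte survival.

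The promoter windows of Tgfb3, Tgfbr3 and Bmp4 are printed because a Tgfb3 and a Tgfbr3 probe set ranked the 6 arrays in nearly the same order, while Bmp4 had an order of its own. Each runs from 250 bases before to 50 bases after the gene's start in RefSeq (build GRCr8), 5′ to 3′ on the strand of the gene. Capitals mark matches on either strand to the GC box GGGCGG, to CAGAC, the core of an element that SMAD proteins bind, and to the TATA box TATAAA.
Tgfb3: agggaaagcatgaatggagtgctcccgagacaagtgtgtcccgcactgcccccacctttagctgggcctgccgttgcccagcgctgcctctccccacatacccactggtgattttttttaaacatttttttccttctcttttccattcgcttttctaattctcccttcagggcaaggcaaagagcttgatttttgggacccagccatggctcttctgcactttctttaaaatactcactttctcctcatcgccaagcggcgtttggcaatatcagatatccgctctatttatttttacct
Tgfbr3: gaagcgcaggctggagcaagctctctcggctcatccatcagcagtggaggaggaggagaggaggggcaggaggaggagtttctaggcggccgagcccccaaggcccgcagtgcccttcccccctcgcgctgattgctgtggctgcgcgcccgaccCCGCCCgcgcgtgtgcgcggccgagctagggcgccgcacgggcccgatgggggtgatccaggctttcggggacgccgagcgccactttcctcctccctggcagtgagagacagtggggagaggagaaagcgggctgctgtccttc
Bmp4: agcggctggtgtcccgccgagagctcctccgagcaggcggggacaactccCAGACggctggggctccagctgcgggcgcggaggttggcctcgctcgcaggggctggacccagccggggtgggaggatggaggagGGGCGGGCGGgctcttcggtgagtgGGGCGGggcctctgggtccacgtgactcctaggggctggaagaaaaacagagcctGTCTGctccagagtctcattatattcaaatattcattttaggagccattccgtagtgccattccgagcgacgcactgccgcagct
The windows lie at chr6:111456897-111457196 (minus strand), chr14:2634044-2634343 (plus strand) and chr15:22101884-22102183 (minus strand). Their G and C content was 47.7% for Tgfb3, 69.7% for Tgfbr3 and 65.0% for Bmp4. The Tgfb3 window held none of the 3 motifs, the Tgfbr3 window held 1 GC box, and the Bmp4 window held 3 GC boxes, 2 of which overlap, and 2 matches to CAGAC. A GC box was present in the windows of 4 of the 7 genes and in 33.1% of all 33469 RefSeq windows of the rat. CAGAC was present in 1 of the 7 and in 50.1% of all, and TATAAA in none of the 7 and in 14.2% of all.

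None of the TGF-beta and BMP4 probe sets passed the test between any of the 3 groups. By unadjusted p, the first differences were a lower Tgfb3 signal in cultured ovaries than at P0 and a lower Bmp4 signal than at P4. Next came a higher Tgfb1 signal in cultured ovaries than at P0, whose log2 change fell from 1.17 to 0.30 without P0 replicate 1. Of the 9 probe sets, 7 for 5 genes passed the filter on dim probe sets and were tested with limma, with p-values adjusted over all 6118 probe sets tested by the Benjamini-Hochberg method and called at an adjusted p under 0.05. Log2 changes are differences of log2(intensity + 7.7). For cultured against P0, 0 of the 7 were called, beside 5.43% of all probe sets tested, and 3 had an unadjusted p under 0.05, beside 20.8%. For cultured against P4, 0 of the 7 were called, beside 2.78%, and 1 had an unadjusted p under 0.05, beside 14%. For P4 against P0, 0 of the 7 were called, beside 1.08%, and 2 had an unadjusted p under 0.05, beside 13%. The fit with the replicate number as a block, which called 5.13% of all probe sets between P4 and P0, also called 0 of the 7. An exact permutation test of 2 arrays against 2 cannot give a two-sided p below 0.33.

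**Figure D1:**
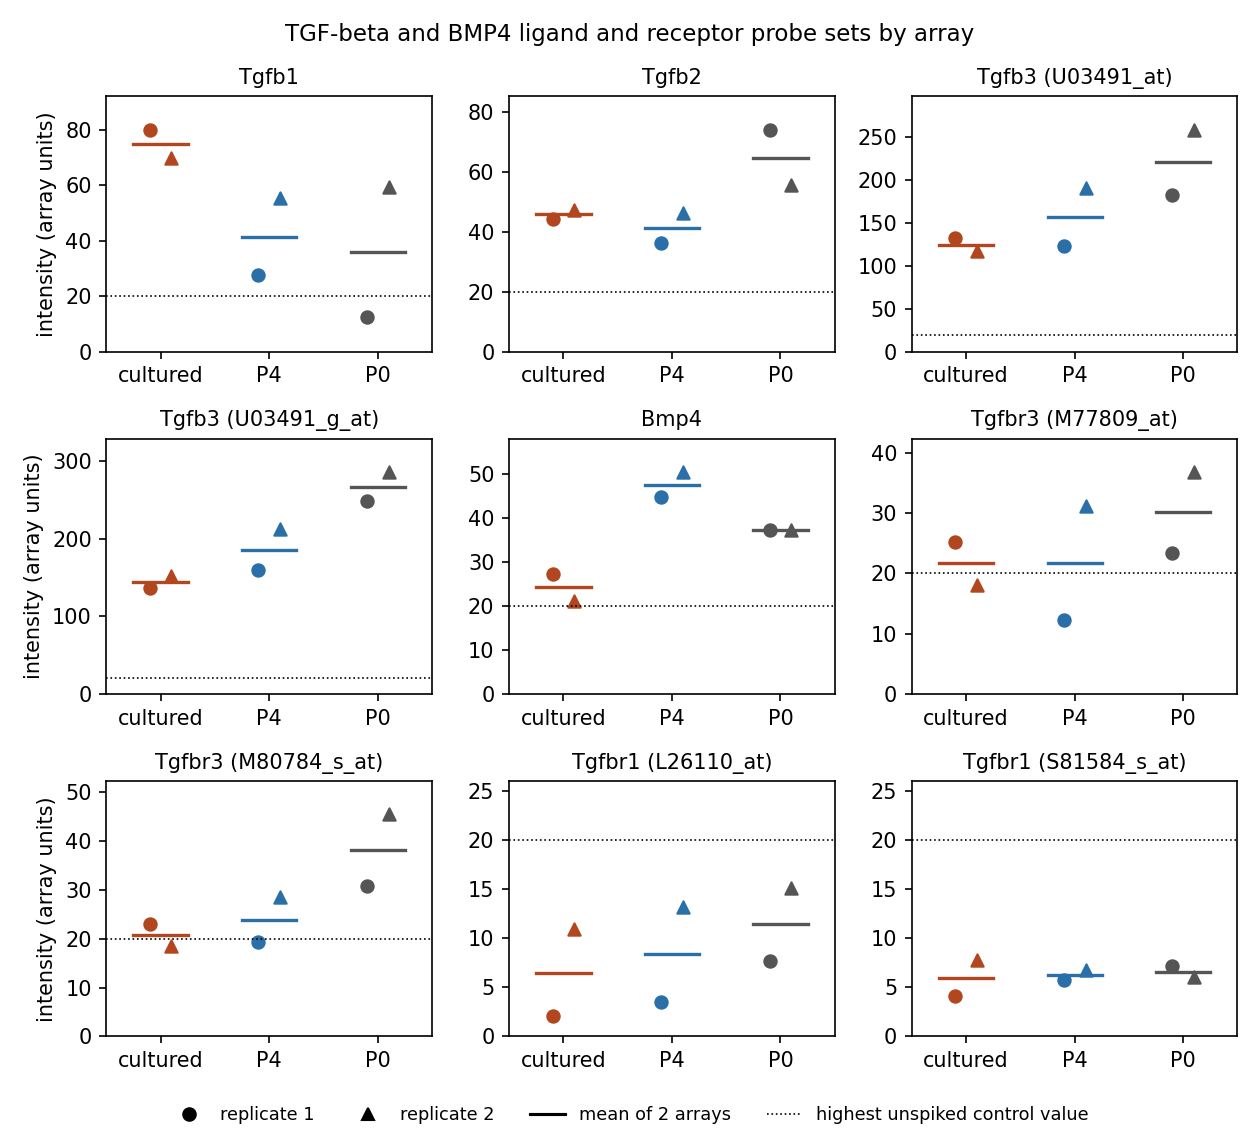
Intensity of the 9 probe sets in each of the 6 arrays (array units, linear axis from 0), with cultured ovaries on the left, then P4 and P0. Circles are replicate 1, triangles replicate 2, bars the mean of the 2 arrays and the dotted line the level of 20. Tgfb3 is highest at P0 on its U03491_g_at probe set, Tgfb1 is highest in both cultured arrays, and both Tgfbr1 probe sets stay under the line on all 6 arrays.

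Tgfb3 encodes TGF-beta 3 and had a pair of probe sets built on the same transcript record, which are therefore not independent measurements. The probe set U03491_g_at read 136.1 and 151.8 in cultured ovaries, 159.3 and 211.9 at P4, and 247.7 and 285.5 at P0. All 3 groups were separate, with cultured ovaries lowest and P0 highest. This order without overlap was seen in 4.48% of all probe sets tested. The means were 144 ± 11.1 in cultured ovaries, 186 ± 37.2 at P4 and 267 ± 26.7 at P0 (SD, n = 2 each). Cultured ovaries lay 1.81-fold below P0 (log2 change -0.85, SE 0.22, 95% interval -1.36 to -0.35, limma adjusted p = 0.0621). That was the smallest adjusted p among the 7, and it stayed between 0.0559 and 0.0970 under the 8 alternatives that left out no array.

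The other Tgfb3 probe set, U03491_at, read 132.5 and 117 in cultured ovaries, 123.7 and 190.7 at P4, and 183.1 and 258.5 at P0. Cultured ovaries again lay below P0 without overlap, whereas P4 overlapped both other groups. The log2 change of cultured against P0 was -0.77 (SE 0.27, 95% interval -1.37 to -0.17, limma adjusted p = 0.141). For P4 against P0 the log2 changes were -0.51 on U03491_g_at (limma adjusted p = 0.368) and -0.48 on U03491_at (limma adjusted p = 0.513). Both probe sets were lower at P4 within each replicate number, by 0.61 and 0.42 on U03491_g_at and by 0.54 and 0.42 on U03491_at (log2, replicates 1 and 2). Cultured ovaries and P4 differed by less, with log2 changes of -0.34 and -0.29 on the 2 probe sets (limma adjusted p = 0.585 and 0.737). The stroma and matrix markers, all 8 of which were on the array and none at 0, summed to 12526.4 and 11746.3 in cultured ovaries, 13050.3 and 15909.9 at P4, and 14245.2 and 15911.4 at P0, and their part in the Tgfb3 values was not tested. Within this list, Dcn and Lum read higher in both cultured arrays than at P0. Col1a1, Col1a2, Postn and Nr2f2 read lower, and Col3a1 and Pdgfra overlapped.

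Tgfb2 encodes TGF-beta 2, the ligand that depends most on betaglycan. Its probe set, M96643_at, read 44.3 and 47.4 in cultured ovaries, 36.2 and 46.3 at P4, and 74.1 and 55.5 at P0. Both P0 arrays were above the other 4, and cultured ovaries overlapped P4. The log2 change was -0.43 for cultured against P0 (SE 0.25, 95% interval -0.99 to 0.13, limma adjusted p = 0.38) and -0.56 for P4 against P0 (SE 0.25, limma adjusted p = 0.382). For cultured against P4 it was 0.14 (SE 0.25, limma adjusted p = 0.896).

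Tgfb1 encodes TGF-beta 1, the isoform that immune cells and platelets make in quantity. Its probe set, X52498cds_at, read 80 and 70 in cultured ovaries, 27.5 and 55.4 at P4, and 12.4 and 59.5 at P0. The cultured arrays were the 2 highest, and P4 lay entirely within the wide P0 range. The P0 array that read 12.4, below the dim level of 20, was replicate 1, the one unlike the others on some control probes. The means were 75.0 ± 7.07 in cultured ovaries, 41.5 ± 19.7 at P4 and 36.0 ± 33.3 at P0 (SD, n = 2 each).

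Between cultured ovaries and P0 the Tgfb1 probe set had a log2 change of 1.17 (SE 0.50, 95% interval 0.04 to 2.29, limma adjusted p = 0.225). The P0 replicates decided its size: the log2 change was 0.30 without P0 replicate 1 (limma adjusted p = 0.741) and 2.04 without P0 replicate 2, where it passed (limma adjusted p = 0.0321). Across all leave-one-out fits the adjusted p ran between 0.0321 and 0.741. Against P4 the cultured log2 change was 0.81 (SE 0.50, limma adjusted p = 0.552), and P4 against P0 gave 0.36 (SE 0.50, limma adjusted p = 0.842), with opposite signs in the 2 replicate numbers, 0.81 in replicate 1 and -0.09 in replicate 2. Macrophage and leukocyte markers, of which 7 of 9 were on the array and none at 0, summed to 3422.5 and 1697.5 in cultured ovaries, 268.1 and 350.1 at P4, and 414.4 and 513.6 at P0. Lyz2 made up most of the cultured sums (2267 and 955.7). Cd74, C1qb, Ctss and Cd14 were also highest in both cultured arrays, whereas Ptprc overlapped between all 3 groups and Csf1r overlapped between cultured ovaries and P0. The 2 platelet markers measured of 5, neither at 0, summed to 371 and 180.4 in cultured ovaries, 99.4 and 124.6 at P4, and 151.2 and 164.8 at P0. Of these, Pf4 was highest in both cultured arrays, while Itga2b in cultured ovaries overlapped both other groups. The part of either marker list in the Tgfb1 values was not tested.

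Bmp4 encodes the BMP ligand of the set. Its probe set, Z22607_at, read 27.4 and 21.2 in cultured ovaries, 44.8 and 50.5 at P4, and 37.4 and 37.3 at P0. All 3 groups were separate, with P4 highest and cultured ovaries lowest, close to the dim level. This order without overlap was seen in 1.65% of all probe sets tested, and a separation of all 3 groups in any order in 14.4%. The means were 24.3 ± 4.38 in cultured ovaries, 47.6 ± 4.03 at P4 and 37.4 ± 0.0707 at P0 (SD, n = 2 each).

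Cultured ovaries lay 1.74-fold below P4 in Bmp4 (log2 change -0.80, SE 0.25, 95% interval -1.36 to -0.23, limma adjusted p = 0.162). Without each array in turn the log2 change lay between -0.94 and -0.66 and the adjusted p between 0.199 and 0.579. Cultured against P0 gave a log2 change of -0.50 (SE 0.25, 95% interval -1.07 to 0.07, limma adjusted p = 0.307). P4 against P0 gave 0.30 (SE 0.25, 95% interval -0.27 to 0.86, limma adjusted p = 0.698), positive in both replicate numbers (0.22 in replicate 1 and 0.37 in replicate 2).

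Tgfbr3, the betaglycan gene, had probe sets from 2 transcript records. The first, M80784_s_at, read 23 and 18.5 in cultured ovaries, 19.3 and 28.5 at P4, and 30.8 and 45.5 at P0. Both P0 arrays were above the other 4, and cultured ovaries overlapped P4 around the dim level. The log2 change was -0.67 for cultured against P0 (SE 0.30, limma adjusted p = 0.247), -0.14 for cultured against P4 (SE 0.30, limma adjusted p = 0.908) and -0.53 for P4 against P0 (SE 0.30, limma adjusted p = 0.521).

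The second Tgfbr3 probe set, M77809_at, read 25.2 and 18.1 in cultured ovaries, 12.3 and 31.1 at P4, and 23.4 and 36.8 at P0. All 3 groups overlapped. Its log2 changes were -0.35 for cultured against P0, 0.06 for cultured against P4 and -0.42 for P4 against P0 (limma adjusted p = 0.653, 0.967 and 0.72). M80784_s_at ordered the arrays as the Tgfb3 probe set U03491_at did, apart from the places of P4 replicate 2 and P0 replicate 1. As a description over 6 arrays that share their groups, and with no test, Pearson's r between these probe sets was 0.98, and that between the 2 Tgfbr3 probe sets was 0.84. Their promoter windows, printed above, shared no match to the 3 motifs.

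Tgfbr1 encodes the type I receptor kinase, and neither of its probe sets passed the filter. L26110_at read 2.1 and 10.9 in cultured ovaries, 3.5 and 13.2 at P4, and 7.7 and 15.1 at P0. S81584_s_at read 4.1 and 7.8 in cultured ovaries, 5.7 and 6.8 at P4, and 7.2 and 6 at P0. None of these 12 readings exceeded the dim level, and no order of the groups could be read from them. In the fit with no filter their log2 changes lay between -0.47 and -0.04, and the smallest adjusted p of the 6 was 0.633.

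**Figure D2:**
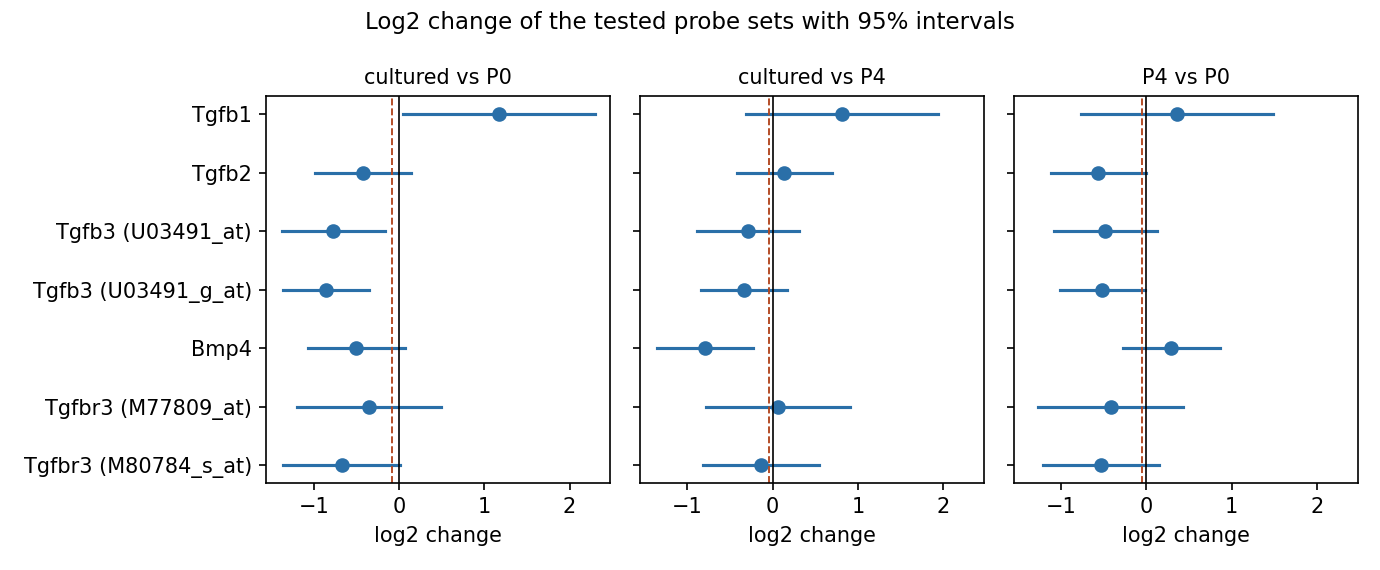
Log2 change of the 7 tested probe sets (points) with 95% intervals (bars) for cultured against P0, cultured against P4 and P4 against P0. The dashed line is the median of all 6118 probe sets tested. The Tgfb1 interval is the widest in each panel and lies above 0 in the first. Below 0 lie both Tgfb3 intervals in the first panel and the Bmp4 interval in the second. The intervals of Tgfb2 and Tgfb3 U03491_g_at in the third panel also lie below 0. None of these differences passed.

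Over the 7 tested probe sets, 6 had a log2 change below 0 for cultured against P0, beside 57.9% of all probe sets tested. The number was 4 for cultured against P4, beside 55%, and 5 for P4 against P0, beside 56.2%. The groups did not overlap in 6 of 7 for cultured against P0 (1 higher and 5 lower in cultured ovaries), beside 50.4% of all (21.3% higher and 29% lower). They did not overlap in 3 of 7 for cultured against P4 (1 higher and 2 lower in cultured ovaries), beside 43.6% (19.1% higher and 24.5% lower), and in 4 of 7 for P4 against P0 (1 higher and 3 lower at P4), beside 44.2% (18.6% higher and 25.7% lower). The median log2 change of the 7 was -0.50, -0.14 and -0.48 in these comparisons, and that of all probe sets tested was -0.08, -0.04 and -0.05. The comparisons share arrays, so these counts are not independent of each other, and the pair of Tgfb3 probe sets enters each of them as 2.

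The rest of the TGF-beta superfamily was read from a list of 81 further genes, by role, on the brightest probe set of each. Of these, 55 had a probe set and 45 were tested. Between cultured ovaries and P0, 2 of 45 passed, both lower in cultured ovaries (4.44%, beside 5.43% of all probe sets tested). Between cultured ovaries and P4, 1 was higher and 2 were lower in cultured ovaries (6.67%, beside 2.78%). Between P4 and P0, 1 passed, higher at P4 (2.22%, beside 1.08%). The list's median log2 change was -0.19, -0.18 and -0.02 in these comparisons.

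Among 7 other ligands, Inha and Amh passed. Inha, the inhibin alpha subunit, read 360.7 and 462.3 in cultured ovaries, 1970.3 and 1349.1 at P4, and 238 and 394.7 at P0. Both P4 arrays were far above the other 4. Its log2 change was -1.98 for cultured against P4 (limma adjusted p = 0.00465) and 2.38 for P4 against P0 (limma adjusted p = 0.00568), and the first call ended without cultured replicate 1 (adjusted p = 0.0864) but held in every leave-one-out fit on its other probe set, M32754cds_s_at (log2 change -1.84, highest adjusted p = 0.0299). Amh, which encodes the anti-Müllerian hormone that granulosa cells secrete, read 138.6 and 137.1 in cultured ovaries, 585.7 and 389.4 at P4, and 192 and 214.2 at P0. It fell by 1.74 on the log2 scale in cultured ovaries against P4, or 3.34-fold (limma adjusted p = 0.00407), a call that ended without either cultured array (highest adjusted p = 0.0542). Its log2 change between P4 and P0 was 1.21 (limma adjusted p = 0.0506, or 0.0102 with the replicate block). None of the other 5 ligands passed. Bmp7, a BMP made by ovarian theca cells, had log2 changes of 0.35 for cultured against P4 and -0.29 for P4 against P0 (limma adjusted p = 0.681 and 0.742). Bmp3 read 9.4 and 22.7 in cultured ovaries, 41.1 and 21.8 at P4, and 70.1 and 22 at P0. The groups overlapped, and the highest reading was that of P0 replicate 1, the array unlike the others on some control probes. Its log2 change was -1.08 for cultured against P0 (limma adjusted p = 0.246). For Inhba, the activin beta A subunit, cultured against P4 gave -0.38 (limma adjusted p = 0.66). Gdf10, a relative of Bmp3, had -0.29 for cultured against P0 and -0.13 for P4 against P0 (limma adjusted p = 0.582 and 0.895). Granulosa markers, of which 9 of 10 were on the array and none at 0, summed to 1235.3 and 1340.5 in cultured ovaries, 3936.1 and 2974.8 at P4, and 1783.8 and 1826.8 at P0. Inha, Amh, Inhba and Fst are themselves on that list, and its part in their values was not tested.

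None of 7 other receptors passed in any comparison. Amhr2, the receptor for anti-Müllerian hormone, read 277.1 and 209.9 in cultured ovaries, 297.4 and 373.5 at P4, and 354.7 and 494 at P0. The cultured arrays were the 2 lowest, with a log2 change of -0.78 against P0 (limma adjusted p = 0.106) and -0.45 against P4 (limma adjusted p = 0.463). The type I receptor Acvr1, which binds BMPs, had log2 changes of -0.45 for cultured against P0, -0.35 for cultured against P4 and -0.10 for P4 against P0 (limma adjusted p = 0.39, 0.663 and 0.917). The activin receptor Acvr2a read 18.2 and 12.7 in cultured ovaries, both under the dim level, 23.9 and 22.4 at P4, and 19.8 and 23.7 at P0, and did not pass for cultured against P0 or P4 (limma adjusted p = 0.555 and 0.62). The BMP receptor Bmpr1a had -0.10 for P4 against P0 (limma adjusted p = 0.919).

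None of 5 SMAD genes passed on its brightest probe set either. Smad2, which carries the TGF-beta and activin signal, read 261.3 and 361.4 in cultured ovaries, 337.1 and 363.8 at P4, and 258.6 and 173.9 at P0. Its log2 change was 0.52 for cultured against P0 (limma adjusted p = 0.283) and 0.70 for P4 against P0 (limma adjusted p = 0.259). Another Smad2 probe set, AB017912_at, had a log2 change of 1.01 for P4 against P0 (limma adjusted p = 0.101) and passed with the replicate block (adjusted p = 0.0137), higher at P4 by 0.81 in replicate 1 and 1.22 in replicate 2. The brightest one did not pass with that block (limma adjusted p = 0.0755). On the remaining probe set, rc_AI228675_at, P4 and P0 overlapped, with a log2 change of 0.27 (limma adjusted p = 0.871, or 0.492 with the block). Smad3, the partner of Smad2 on the same branch, read 9.6 and 20 in cultured ovaries, 28 and 28.3 at P4, and 26.3 and 37.6 at P0. Neither cultured array exceeded the dim level, so the signal was at least 1.57-fold lower in cultured ovaries than at P0 (limma adjusted p = 0.178) and at least 1.41-fold lower than at P4 (limma adjusted p = 0.376), and neither difference passed. The BMP branch gene Smad9 read 6.5 and 14.9 in cultured ovaries, 22.4 and 19.1 at P4, and 9.7 and 27.1 at P0. With 4 of 6 arrays under the dim level no fold is given, and none of the 3 comparisons passed (limma adjusted p = 0.584 for cultured against P0, 0.556 for cultured against P4 and 0.895 for P4 against P0). The common partner Smad4 had -0.18 for cultured against P4 (limma adjusted p = 0.844).

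Among 10 binding proteins and antagonists, Fst fell in cultured ovaries against P0 and A2m rose in cultured ovaries against P4. Fst, or follistatin, binds and neutralizes activins, and read 316.9 and 259 in cultured ovaries, 560.3 and 407.1 at P4, and 1010.6 and 813.9 at P0. The 3 groups were separate, with cultured ovaries lowest. The log2 change of cultured against P0 was -1.64 (SE 0.23, limma adjusted p = 0.00407), and -1.51 on the other Fst probe set (limma adjusted p = 0.00677). Both calls ended without cultured replicate 2 (adjusted p = 0.0636 and 0.0679). Between P4 and P0 Fst had a log2 change of -0.91 (limma adjusted p = 0.101, or 0.011 with the replicate block). The other Fst probe set gave -0.63 and did not pass (limma adjusted p = 0.267, or 0.0544 with the block).

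A2m encodes alpha-2-macroglobulin, a protease inhibitor that also binds TGF-beta. On its brightest probe set it read 450 and 304.4 in cultured ovaries, 28.6 and 82.2 at P4, and 203.8 and 191.3 at P0. The cultured arrays were the 2 highest and the P4 arrays the 2 lowest. The log2 change of cultured against P4 was 2.73 (SE 0.38, limma adjusted p = 0.00465), and the call ended without cultured replicate 1 (adjusted p = 0.0855). Its 3 other tested probe sets had smaller log2 changes, between -0.17 and 0.54 in the same comparison, none of which passed. The probe set rc_AA900582_at had the order of the brightest one without overlap (log2 change 0.54, limma adjusted p = 0.283). On M22670cds_g_at and X13983mRNA_at, cultured ovaries and P4 overlapped. Between P4 and P0 the brightest one had a log2 change of -1.84 (limma adjusted p = 0.0583, or 0.0074 with the replicate block). The 3 others gave 0.39, 0.14 and -0.42 there, and none passed with the block (limma adjusted p = 0.485, 0.737 and 0.246). The macrophage and leukocyte sums given with Tgfb1 were likewise highest in the cultured arrays, and their part in the A2m values was not tested. The small leucine-rich proteoglycans, matrix proteins that can bind TGF-beta, did not pass. Lum had a log2 change of 0.77 and Dcn of 0.70 for cultured against P4 (limma adjusted p = 0.0608 and 0.0782). The other Dcn probe sets tested gave smaller ones there, 0.51, 0.24 and 0.08. Fmod had a log2 change of -0.96 for cultured against P0 (limma adjusted p = 0.0722), and its other probe set -0.79. The BMP antagonist noggin (Nog) read 14.4 and 15.5 at P4, both under the dim level, and 30.9 and 19.8 at P0, a difference that did not pass (limma adjusted p = 0.571). Ltbp1, whose product holds latent TGF-beta in the matrix, had a log2 change of 0.32 for P4 against P0 (limma adjusted p = 0.576).

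Among 16 genes known to respond to TGF-beta or BMP, Postn was the one that passed on its brightest probe set. This gene of the matrix protein periostin read 640.4 and 393.4 in cultured ovaries, 609.1 and 692.1 at P4, and 1390.8 and 1587.2 at P0. Both P0 arrays were above the other 4. Cultured against P0 gave a log2 change of -1.55 (SE 0.24, limma adjusted p = 0.0066), a call that ended without cultured replicate 2 (adjusted p = 0.0597). P4 against P0 gave -1.18 (limma adjusted p = 0.0525, or 0.00258 with the replicate block). The BMP-responsive gene Id1, an inhibitor of helix-loop-helix factors, read 731.2 and 1140.4 in cultured ovaries, 1036.1 and 999.7 at P4, and 559.5 and 609.5 at P0. Its log2 change was 0.64 for cultured against P0 (limma adjusted p = 0.138) and 0.79 for P4 against P0 (limma adjusted p = 0.143, or 0.0219 with the replicate block), while its other probe set gave -0.20 and -0.02. Id3 had a log2 change of 0.56 for cultured against P0 (limma adjusted p = 0.108). The collagen gene Col1a2 had -0.67 for cultured against P4 (limma adjusted p = 0.0634) and -0.50 for cultured against P0 (limma adjusted p = 0.109). Pmepa1 and Cdkn1a, an inhibitor of TGF-beta signalling and a cell cycle inhibitor, had -0.70 and 0.71 for cultured against P4 (limma adjusted p = 0.24 and 0.246). The matrix gene Fn1 had -0.50 for P4 against P0 (limma adjusted p = 0.425), while its other tested probe sets gave -0.66 and 0.11. The matricellular gene Ccn1 read 7.1 and 14.4 at P4, both under the dim level, and 19.1 and 29.5 at P0, a difference that did not pass (limma adjusted p = 0.445). Postn and Col1a2 belong to the stroma and matrix markers whose sums are given with Tgfb3.

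Tnc, the gene of the matrix protein tenascin C, did not pass on its brightest probe set but did on 2 others. The brightest, U09361_s_at, exceeded the dim level on all 6 arrays. It read 50.1 and 83.3 in cultured ovaries, 96.2 and 128.1 at P4, and 109.3 and 127 at P0. Its log2 change was -0.79 for cultured against P0 and -0.71 for cultured against P4 (limma adjusted p = 0.139 and 0.27). U15550_at read 10.3 and 8.3 in cultured ovaries, 58.1 and 79.3 at P4, and 58.6 and 69.7 at P0. Both cultured arrays were under the dim level, so with that level in their place the signal was at least 3.39-fold lower in cultured ovaries than at P4 (limma adjusted p = 0.00213) and at least 3.2-fold lower than at P0 (limma adjusted p = 0.00254). Both calls held in every leave-one-out fit (highest adjusted p = 0.0285). U09401_s_at read 1.7 and 2.5 in cultured ovaries, 20.1 and 38.2 at P4, and 22.7 and 44.3 at P0, at least 1.39-fold lower in cultured ovaries than at P4 (limma adjusted p = 0.0345) and at least 1.59-fold lower than at P0 (limma adjusted p = 0.0177). Its call against P4 ended without any 1 of the 4 arrays compared (highest adjusted p = 0.248) and its call against P0 without P0 replicate 2 or either cultured array (highest adjusted p = 0.133).

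**Figure D3:**
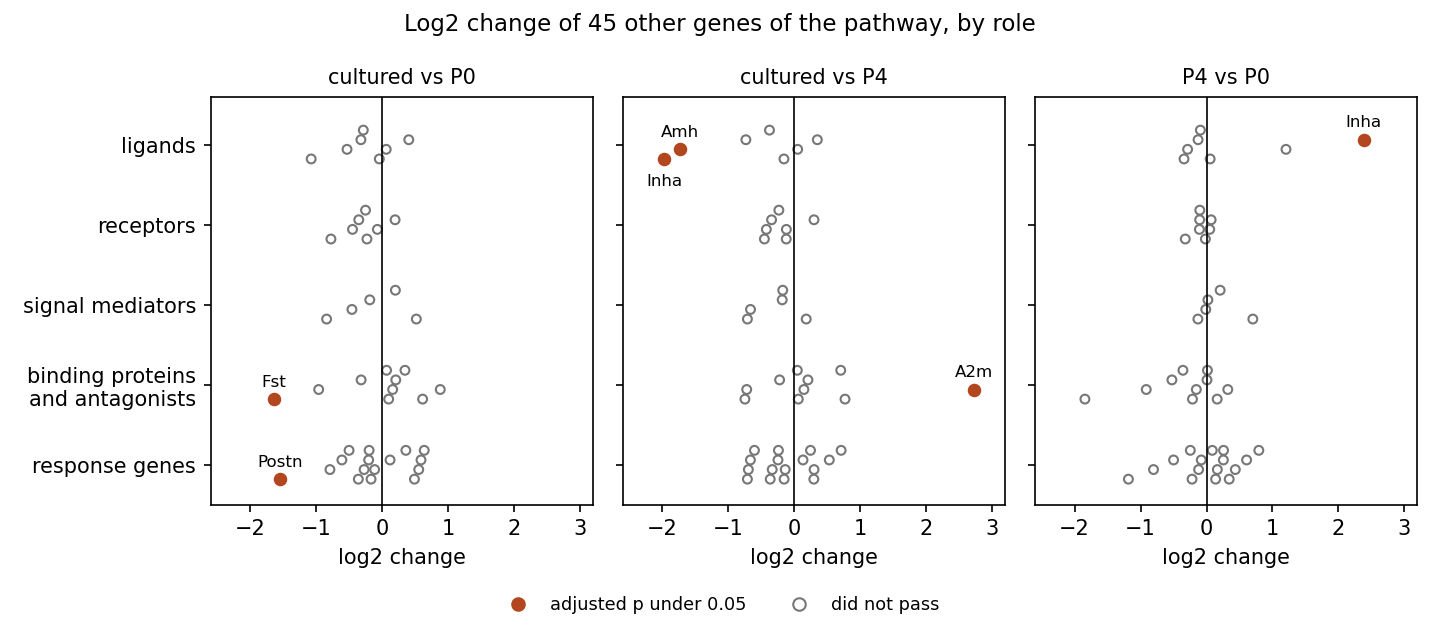
Log2 change of 45 other TGF-beta superfamily genes, 1 point for the brightest probe set of each, in rows by role, for cultured against P0, cultured against P4 and P4 against P0. Filled points passed at an adjusted p under 0.05 and open points did not. The filled points are Fst and Postn in the first panel, Inha, Amh and A2m in the second and Inha in the third.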

How the data were processed

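The deposited table holds linear probe set intensities, which the authors had already scaled: the mean left after trimming 2% at each end was 125.2 on all 6 arrays. The algorithm is not given in the sources used here. Labelling followed the manufacturer's procedures, per the labels' protocols. No further normalization was applied. Intensities were taken to log2 after adding 7.7, which is the 20th percentile of the table. Leaving out 59 control probe sets and the 2622 dimmest others (mean log2 below their 30th percentile) gave 6118. These were fitted together, with 1 mean for each of the 3 groups, by limma 3.58.1 under R 4.3.3 (moderated variances with a trend, two-sided, Benjamini-Hochberg). A run on simulated data placed changes only among probe sets at or above the median brightness. It therefore gives no measure for dimmer ones such as Bmp4 and Tgfbr3. The median SE of a log2 change was 0.259. All log2 changes are on the log2(intensity + 7.7) scale, which understates changes of dim probe sets.

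Gene names came from the platform annotation: 7018 probe sets had 1 symbol, of which 6994 matched the RefSeq gene table. The members, the superfamily list and the markers were chosen with earlier results of these data known. Of the list, genes called in any comparison and, per role and comparison, up to 3 others of smallest p are named. Genes most alike to a member were to be named only for called probe sets, and there were none. Actb, a reference gene, had log2 changes of -0.29, -0.42 and 0.13 for cultured against P0, cultured against P4 and P4 against P0 (limma adjusted p = 0.364, 0.286 and 0.828).

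The labels describe the 2 RNA samples of a group as independent. Per the labels, chip IDs of P0 and P4 arrays with the same replicate number share their ending, whereas no ending recurs among the cultured arrays. P4 and P0 arrays are thus matched by replicate number (their deviations correlated at 0.33 across probe sets), which is a match of arrays and not of RNA pools. The calls rest on the fit without this match, and the replicate block is given as an alternative. In culture, chip ID and group cannot be told apart. "At least" folds set each array under 20 in the dimmer group to 20 and are given only where every array of the brighter group exceeded 20, a level picked with the values in view.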

Additional observations from a re-analysis of the deposited data

How the results depend on the processing

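Precision is limited by 2 arrays a group and by dim signals. Tgfbr1, Tgfbr3, Smad9, Ccn1, Nog, Acvr2a and Smad3 were at or under the level of 20 on at least 2 of 6 arrays. So were the Tnc probe sets U15550_at and U09401_s_at. The 7 tested probe sets, each in 3 comparisons, gave 21 log2 changes. Of the refits that left out no array, those with pseudocount 1 or 32, quantile normalization or median centring could change a direction. Those with no filter, a filter at the 50th percentile (which 4 of the 7 passed) or no variance trend keep the log2 change as it is. So do those with only the 2 groups compared or the replicate block. In all 166 of these refits the 21 log2 changes kept their direction and stayed uncalled (smallest limma adjusted p = 0.0559). With 1 array left out, 117 of 126 did so; where an arm then has 1 array, it is assumed to vary like the others. The Tgfb1 change of cultured against P0 passed once, and 8 refits changed sign, at the following ranges over all arrays left out. For P4 against P0 these were -0.51 to 1.23 for Tgfb1 and -0.90 to 0.0607 for Tgfbr3 M77809_at. For cultured against P4 they were -0.0127 to 0.29 for Tgfb2, -0.59 to 0.009 for Tgfb3 U03491_at, -0.41 to 0.54 for Tgfbr3 M77809_at and -0.35 to 0.0709 for Tgfbr3 M80784_s_at. A refit without an array of the group not compared keeps the log2 change as it is. Only refits without a compared array could therefore change sign. The cause of the sign changes was not tested.

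Counts of all called probe sets moved more. For P4 against P0, 66 were called, against 23 with no filter, 29 with no variance trend, 23 with only the 2 groups compared, 314 with the replicate block and 15 to 55 with 1 array left out. The replicate block changed no call of the 7. For cultured against P0, 332 were called, against 90 to 353 with 1 array left out, and for cultured against P4, 170, against 86 to 193. The count of the 7 called for cultured against P0 was 0 to 1 with 1 array left out. Of the superfamily list, 1 gene was called for P4 against P0, against 2 with no filter, 2 with the stricter filter, 6 with the replicate block and 1 to 3 with 1 array left out. The list's counts with 1 array left out were 0 to 2 for cultured against P0 (2 with all arrays) and 0 to 3 for cultured against P4 (3 with all). Among called superfamily probe sets, Tnc U09401_s_at for cultured against P4 lost its call with pseudocount 32 (log2 change -0.83, adjusted p = 0.0839) and with no filter (adjusted p = 0.0512).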

Other observations

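The sign of the gap between replicates varied between groups and genes. P4 replicate 1 read lower than P4 replicate 2 on all 7 tested TGF-beta and BMP4 probe sets, where 52.2% of all probe sets tested did so, with log2 gaps between -0.96 for Tgfbr3 M77809_at and -0.15 for Bmp4. P0 replicate 1 read lower than P0 replicate 2 on 5 of the 7, beside 45.4% of all, with the widest gap, -1.74, for Tgfb1. Cultured replicate 1 read lower than cultured replicate 2 on 2 of the 7, beside 55.6% of all.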
